A study of Rattus norvegicus with 18 samples.

Results

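Reactive astrocyte genes were measured by RNA-Seq in the dorsal hippocampus of 18 adult male Sprague Dawley rats. The 10 genes are Gfap, Vim, Nes, Serpina3n, Lcn2, Cd44, S1pr3, Timp1, Steap4 and Cp, out of 38445 genes in the count tables, and all 10 were found by symbol. They were chosen by name with the CPM of these rats by treatment already known, so their own levels and differences are a description of these rats. The control rats (n = 6) were fed the Lieber-DeCarli control liquid diet throughout. The ethanol rats (n = 6) received the Lieber-DeCarli ethanol diet, raised over 7 days and then held at 9% for 16 days, and were killed with 0 h of withdrawal. The withdrawal rats (n = 6) received the same 9% diet for 15 days and then the control diet for 24 h. All rats were of the same strain and sex, carried no transgene, and were 75 to 85 days old when purchased. Each library came from whole dissected tissue of 1 animal, in which fewer cells of a type and less RNA per cell cannot be told apart.

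Astrocytes are glial cells that supply neurons, clear glutamate and line blood vessels. After injury, inflammation or seizures they can become reactive, a state recognized by more of the intermediate filament proteins of the cytoskeleton and by a changed set of secreted and surface proteins. GFAP, vimentin and nestin are the filament proteins of this state. SERPINA3N and TIMP1 are secreted inhibitors of proteases, and lipocalin 2 (Lcn2) is a secreted protein that binds iron carriers of bacteria. CD44 is a surface receptor for hyaluronan, and S1PR3 is a G protein-coupled receptor for sphingosine 1-phosphate. STEAP4 reduces iron and copper at membranes, and ceruloplasmin (Cp) is a copper protein that oxidizes iron for export. Several of these genes are known to respond to STAT3, a transcription factor that acts below the gp130 cytokine receptors. None of them is restricted to astrocytes. Vim is also expressed by vessel, meningeal and ependymal cells, and Cd44 by immune cells.

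The sequences just upstream of the start sites show which of these genes hold short motifs of inflammatory transcription factors. RefSeq promoters (assembly GRCr8) were matched for 10 of the 10 genes, and the 250 bases before each start site were searched on both strands. The STAT motif TTCNNNGAA was found in 2 of the 10, against 7.52% of 27457 promoters of all genes in the table. The NF-kappaB motif (GGG, then 3 bases of any kind, then TTCC) was also found in 2 of the 10, against 4.53% of all promoters. The AP-1 motif TGANTCA was found in 0 of the 10, against 6.36% of all promoters. The 3 promoters that hold a motif are shown first, followed by that of Gfap, the most abundant of the genes. Capitals mark the motif matches, and Gfap has none.
Serpina3n: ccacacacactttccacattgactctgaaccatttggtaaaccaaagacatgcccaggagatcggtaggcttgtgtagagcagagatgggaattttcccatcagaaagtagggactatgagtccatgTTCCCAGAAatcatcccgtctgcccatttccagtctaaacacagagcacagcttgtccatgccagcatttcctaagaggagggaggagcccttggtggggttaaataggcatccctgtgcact
Steap4: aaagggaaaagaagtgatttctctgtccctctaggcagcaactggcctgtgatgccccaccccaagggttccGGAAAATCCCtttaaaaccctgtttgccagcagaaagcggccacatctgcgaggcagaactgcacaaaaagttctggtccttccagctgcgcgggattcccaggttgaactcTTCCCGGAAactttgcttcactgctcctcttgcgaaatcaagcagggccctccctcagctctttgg
Lcn2: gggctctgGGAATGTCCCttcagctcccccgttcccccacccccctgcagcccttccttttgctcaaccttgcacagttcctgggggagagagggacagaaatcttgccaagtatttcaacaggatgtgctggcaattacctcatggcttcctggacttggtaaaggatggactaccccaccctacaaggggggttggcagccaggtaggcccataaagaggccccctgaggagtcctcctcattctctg
Gfap: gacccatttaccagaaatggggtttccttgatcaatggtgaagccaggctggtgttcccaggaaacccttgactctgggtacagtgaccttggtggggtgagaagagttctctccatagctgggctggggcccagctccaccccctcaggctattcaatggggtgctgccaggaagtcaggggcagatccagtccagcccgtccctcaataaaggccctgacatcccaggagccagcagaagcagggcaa
The Serpina3n sequence (GRCr8 chr6:129088142-129088391, plus strand) holds the STAT motif at -123 to -115 from the start site. The Steap4 sequence (GRCr8 chr4:27054770-27055019, minus strand) holds a STAT motif at -66 to -58 and, apart from it, an NF-kappaB motif at -178 to -169. The Lcn2 sequence (GRCr8 chr3:36081781-36082030, minus strand) holds an NF-kappaB motif at -242 to -233. The Gfap sequence is GRCr8 chr10:88361662-88361911, minus strand. These matches describe letters and not binding, and sites farther from the start were not searched. The 4 genes called between withdrawal and control rats in the main fit below, Gfap, S1pr3, Timp1 and Cp, held none of the 3 motifs in this window. Of the 3 genes that held one, Serpina3n was too low to be tested, Lcn2 was called only in some alternative fits, and Steap4 was not called. The study reported more phosphorylated STAT3 during withdrawal at a STAT3 motif of the Gfap promoter that lies upstream of this window. Whether motifs and differences are related was not tested.

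The libraries held between 30873228 and 42679748 read pairs on genes, with a median of 36302755. Levels are given as CPM, the counts scaled to library size after TMM normalization. Differences are given as log2 fold changes from limma-voom with 3 surrogate variables, which are unnamed sources of variation estimated from the data, and q is the p adjusted over the 17853 genes above 0.5 CPM in at least 1 rat. The general astrocyte markers, 14 genes including Aqp4 and Slc1a3, and the 6 neuron markers were detected in every rat. In a principal component analysis, withdrawal rats 5 and 1 lay at 63.4 and 37.3 on the first component (25.1% of the variance), and the other 16 rats lay between -31.5 and 24.5. Summed choroid plexus markers (6 genes including Ttr) ran from 1085 to 2264 CPM in control rats, from 1441 to 5332 in ethanol rats and from 29.06 to 5342 in withdrawal rats. The index tags of the libraries came from 3 sets. The 6 control rats had a set of their own, so that index set and control diet cannot be told apart, the 6 ethanol rats shared a set with withdrawal rats 1 and 2, and withdrawal rats 3 to 6 had the third.

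Gfap and Vim were the most abundant of the 10, and Nes, the other filament gene, was among the lowest. Per kilobase of exon length, the mean level in control rats was 349 CPM for Gfap, 53.1 for Vim, 5.03 for Cp, 3.16 for Cd44, 2.30 for S1pr3, 2.21 for Timp1, 1.40 for Lcn2, 0.433 for Nes, 0.335 for Steap4 and 0.0175 for Serpina3n. In this order, S1pr3 and Timp1 overlapped over the 6 control rats, as did Timp1 and Lcn2 and also Nes and Steap4, and the other neighbours did not overlap. The levels per kilobase in withdrawal rats kept this order except for Timp1, whose mean of 7.25 CPM lay above those of Cd44 (4.54) and S1pr3 (3.86), with 1 rat at 23.

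Gfap (rat gene 24387, Rnor_6.0 chromosome 10, 90990762 to 90999435) encodes the main filament of astrocytes. Its level in control rats was 848 CPM at the lowest, 945 at the median and 996 at the highest. In ethanol rats the corresponding values were 575, 749 and 1146 CPM, with 4 of the 6 rats below every control rat. In withdrawal rats they were 639, 1472 and 1530 CPM, and 5 of the 6 rats were above every control and every ethanol rat. The remaining rat, withdrawal rat 5, was below every control rat. The means were 939 ± 58.1 (SD, n = 6) in control, 797 ± 229 in ethanol and 1326 ± 345 CPM in withdrawal rats. Withdrawal differed from control by 0.54 on the log2 scale (SE 0.15, q = 0.0775) and from ethanol by 0.74 (SE 0.17, q = 0.0578), and ethanol differed from control by -0.20 (SE 0.17, q = 0.652). Without withdrawal rat 5 the first of these was 0.62 (q = 0.0272), and without withdrawal rat 1 it was 0.45 (q = 0.197).

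Vim (rat gene 81818, chromosome 17, 80882715 to 80891200) moved less. Vimentin is the partner of GFAP in the filaments of reactive astrocytes and the main filament of many cells of vessels and meninges. Control rats ran from 89.3 to 102 CPM (mean 95.4), ethanol rats from 93 to 115 (mean 105) and withdrawal rats from 80 to 145 (mean 113). Of the withdrawal rats, 5 were above every control rat and rat 4 was below every control rat, and the ethanol rats overlapped both groups. The withdrawal-control difference was 0.22 on the log2 scale (SE 0.097, q = 0.21). Withdrawal rat 5 stood at opposite ends in Vim and Gfap, as the highest of all 18 rats in Vim at 145 CPM and the lowest of its group in Gfap at 639 CPM. Withdrawal rats 4 and 5 also had the lowest and the highest summed level of the 7 fibroblast and meningeal markers in their group, at 94.89 and 496.2 CPM, against 204.2 to 289.1 CPM in control rats and 233.4 to 461.1 in ethanol rats. The sum went with Vim in some other rats and not in others. Withdrawal rat 6, at 495.9 CPM, had the second highest Vim of all 18 rats at 116, and ethanol rat 1, at 457 CPM, had Vim at 94.9. The high sums rested on different markers. In withdrawal rat 5, Col1a1 alone was at 342 CPM, against up to 31.9 in control rats, and in withdrawal rat 6 Igf2 was at 408 CPM. Dcn reached 26.3 CPM in withdrawal and 33.3 in control rats, and Col1a2 had 0 counts in every rat. The part of fibroblast and meningeal cells in Vim was not tested.

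Nes (rat gene 25491, chromosome 2, 187343109 to 187352972) encodes nestin, a filament of neural stem cells that astrocytes can express again after injury. It was scarce, with 62 to 134 read pairs per rat. The levels ran from 1.89 to 3.46 CPM in control, from 1.99 to 3.26 in ethanol and from 2.76 to 3.17 in withdrawal rats, and the groups overlapped throughout. Nes was the 1 gene of the 10 whose SD was not larger in withdrawal than in control rats (0.176 against 0.548 CPM). The fitted log2 difference of withdrawal from control was 0.05 (SE 0.13, q = 0.872), and from ethanol 0.35 (SE 0.16, q = 0.269). The 6 genes on a list of other filament and filament-linking proteins (Synm, Plec, Lmna, Nefl, Nefm and Ina) gave 0 calls in the 3 comparisons, and their fold changes between withdrawal and control lay between -0.16 and 0.23.

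**Figure D1:**
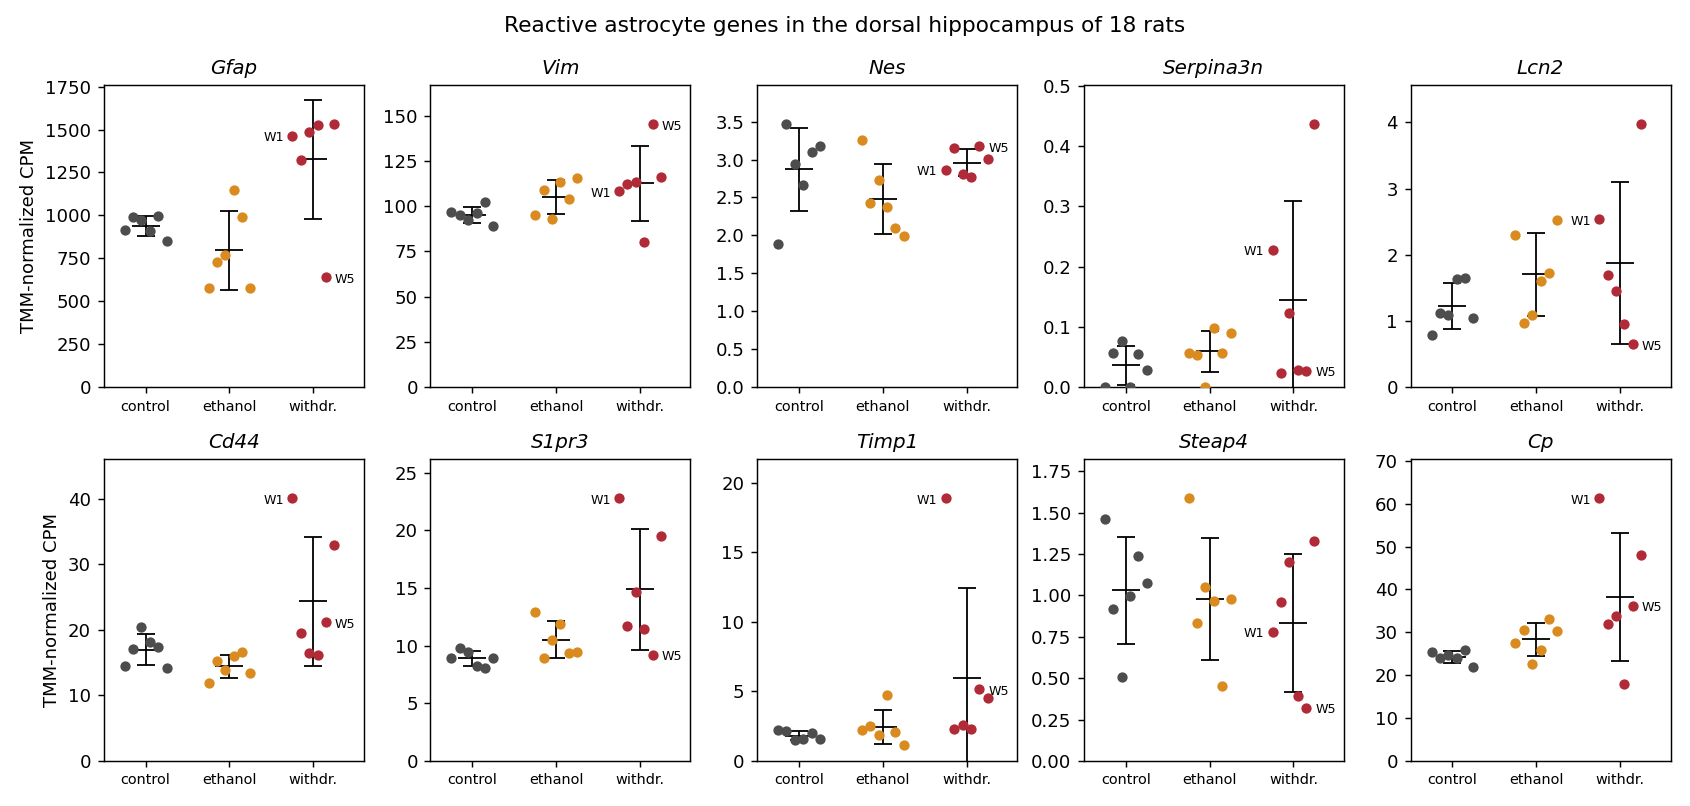
Level of each of the 10 genes in every rat (TMM-normalized CPM, linear axis from 0), with control rats in grey, ethanol rats in orange and withdrawal rats in red. Bars give the mean and SD of 6 rats (lower ends below 0 are not drawn), and W1 and W5 mark withdrawal rats 1 and 5. Timp1 reached 18.9 CPM in W1, and Gfap was at 639 CPM in W5 while the other 5 withdrawal rats were between 1321 and 1530.

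The protease inhibitors were low in all groups. Timp1 (rat gene 116510, chromosome X, 1364771 to 1369451) blocks matrix metalloproteinases. The level in control rats was 1.47 CPM at the lowest, 1.79 at the median and 2.20 at the highest. Ethanol rats were at 1.16, 2.16 and 4.74 CPM, and withdrawal rats at 2.28, 3.55 and 18.9 CPM. It was the 1 gene of the 10 in which all 6 withdrawal rats were above all 6 control rats, which was so, in that direction, for 0.521% of all genes tested. Ethanol rats overlapped both groups. The lowest withdrawal rat stood just over the highest control rat, at 2.28 against 2.20 CPM. The fitted difference from control was 1.33 on the log2 scale (SE 0.39, q = 0.0807), and that from ethanol was 1.0 (SE 0.42, q = 0.238). Withdrawal rat 1 was 10.4 times the control mean. Without it the group mean was 3.37 ± 1.38 (SD, n = 5) in place of 5.96 ± 6.46 CPM and the fitted value 0.89 (q = 0.134).

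Serpina3n (rat gene 24795, chromosome 6, 128073344 to 128080878) is among the most used transcripts of the reactive state in rodents. Here it was close to absent. A total of 8 read pairs fell on it in the control rats, 13 in the ethanol rats and 33 in the withdrawal rats. The highest rat was withdrawal rat 6 with 18 read pairs (0.436 CPM), and 0 control, 1 ethanol and 3 withdrawal rats had more than 3 read pairs. It did not reach 0.5 CPM in any rat and was therefore not tested with the other 9. Serpina3 genes are a family of close copies, of which 7 were in the tables. Of the 6 others, Serpina3j had 15 read pairs in all and 5 had 0. The authors left out read pairs with more than 1 place in the genome, so low counts in this family are uncertain.

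Of the receptors, S1pr3 had the smallest q of the 10 genes. S1pr3 (rat gene 306792, chromosome 17, 13799383 to 13812877) ran from 8.07 to 9.79 CPM in control rats (median 8.92), from 8.89 to 12.9 in ethanol rats (median 9.98) and from 9.22 to 22.8 in withdrawal rats (median 13.2). Of the withdrawal rats, 5 were above every control rat, and rat 5 lay among the controls. Fitted on the log2 scale, withdrawal exceeded control by 0.76 (SE 0.13, q = 0.0195) and ethanol by 0.63 (SE 0.14, q = 0.0531), and the difference between ethanol and control was 0.13 (SE 0.15, q = 0.774). When withdrawal rat 1 was left out, the first was 0.63 (q = 0.0291). Among the other receptors and enzymes of sphingosine 1-phosphate, of 7 tested (S1pr1, S1pr2, S1pr5, Sphk2 and others on the list), 0 were called in any comparison, with fold changes between -0.08 and 0.16 in withdrawal against control.

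Cd44 (rat gene 25406, chromosome 3, 92695083 to 92783820) was high in a pair of withdrawal rats. Control rats ran from 14.2 to 20.5 CPM (median 17.3), ethanol rats from 11.8 to 16.5 (median 14.6) and withdrawal rats from 16.2 to 40.1 (median 20.3). Withdrawal rats 1 and 6 were at 40.1 and 32.96 CPM, and the other 4 lay between 16.2 and 21.2, in or close to the control range. The fitted log2 difference was 0.49 from control (SE 0.18, q = 0.137) and 0.70 from ethanol (SE 0.20, q = 0.103). Among the 6 tested genes of CD44 ligands and hyaluronan enzymes, 1 was called, higher between withdrawal and control, beside 2.85% of all genes. It was Spp1, which encodes osteopontin, a ligand of CD44, with 0.78 between withdrawal and control (SE 0.24, q = 0.0893), and the call was kept in 6 of the 18 fits that left out 1 rat. Without control rat 6 the value was 0.47 (q = 0.339), without withdrawal rat 5 it was 0.52 (q = 0.223), and without surrogate variables it was 0.82 (SE 0.84, q = 0.751). Spp1 ran from 0.782 to 40.2 CPM within the withdrawal rats and overlapped the control rats, which ran up to 4.19 CPM.

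Of the genes of iron and copper handling, Cp was called between withdrawal and control, and Lcn2 and Steap4 were not. Cp (rat gene 24268, chromosome 2, 104744249 to 104803034) ran from 21.9 to 25.8 CPM in control rats (median 24.4), from 22.6 to 33.1 in ethanol rats (median 28.9) and from 18.0 to 61.3 in withdrawal rats (median 35). Of the withdrawal rats, 5 were above every control rat and rat 4 was below every one. Of the ethanol rats, 5 were also above every control rat. On the log2 scale, Cp in withdrawal was 0.66 over control (SE 0.14, q = 0.0291) and 0.46 over ethanol (SE 0.16, q = 0.15), and Cp in ethanol was 0.19 over control (SE 0.16, q = 0.654). Without withdrawal rat 1 the first was 0.55 (q = 0.0455).

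Lcn2 (rat gene 170496, chromosome 3, 11414189 to 11417534) was at 24 to 164 read pairs per rat. Control rats ran from 0.793 to 1.65 CPM (median 1.10), ethanol rats from 0.970 to 2.53 (median 1.67) and withdrawal rats from 0.645 to 3.97 (median 1.57), and the 3 groups overlapped. The withdrawal-control difference was 0.66 (SE 0.22, q = 0.12). Steap4 (rat gene 499991, chromosome 4, 23112682 to 23135354), with 12 to 56 read pairs per rat, ran from 0.507 to 1.46 CPM in control, from 0.453 to 1.59 in ethanol and from 0.323 to 1.33 in withdrawal rats. Its fitted difference was -0.16 between withdrawal and control (SE 0.23, q = 0.737), the 1 value below 0 of the 9 genes. On the list of other iron, copper and siderophore genes, 2 of 13 tested were called higher between withdrawal and control and 0 lower, beside 2.85% and 2.55% of all genes. They were Heph, a relative of ceruloplasmin in the membrane (0.63, SE 0.18, q = 0.0768), and Fth1, the heavy chain of the iron store ferritin (0.22, SE 0.044, q = 0.0222). Fth1 was also called between ethanol and control (0.29, SE 0.046, q = 0.0359), with all 6 ethanol rats above all 6 control rats, as for 0.919% of all genes tested.

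Lcn2 and Steap4 were set beside the choroid plexus transcripts of the same rats, and they went with them in some rats and not in others. Withdrawal rats 4 and 5, with summed choroid plexus markers of 29.06 and 31.66 CPM, had the 2 lowest values of Steap4 in all 18 rats (0.391 and 0.323 CPM) and were the lowest withdrawal rats in Lcn2 (0.949 and 0.645 CPM). Withdrawal rat 6 and ethanol rats 1 and 6, with sums of 5342, 5332 and 4955 CPM, were among the 4 highest rats in Lcn2, at 3.97, 2.30 and 2.53 CPM. In Steap4 the same 3 rats were at 1.33, 1.59 and 0.981 CPM, the last of them in the middle of the range. Further rats went with the sum in Lcn2. Control rats 2, 3 and 6 and ethanol rats 2 and 3, with sums of 1085 to 1684 CPM, were at 0.970 to 1.12. Control rats 4 and 5, ethanol rat 5 and withdrawal rat 2, with sums of 1744 to 2425 CPM, were at 1.64 to 1.73. Some rats did not follow. Withdrawal rat 1 had the second highest Lcn2 (2.54 CPM) at a sum of 1192 CPM, control rat 1 had the lowest Lcn2 of its group (0.793) at the highest control sum (2264), and ethanol rat 4 was at 1.61 with a sum of 3589, below control rats 4 and 5. The part of the choroid plexus in these levels was not tested. The choroid plexus list itself had a median log2 fold change between withdrawal and control of -0.09 with the surrogate variables and -1.0 without them. In the same pair of fits Lcn2 went from 0.66 to 0.42, and its value against ethanol from 0.51 to -0.02. A fit of the 12 rats with 1000 to 3000 CPM of these markers, 6 control, 3 ethanol and 3 withdrawal, was added after the data were seen. In it the withdrawal-control difference was 0.47 for Gfap (q = 0.0949), 0.50 for S1pr3 (q = 0.173), 0.29 for Cp (q = 0.454), 0.27 for Lcn2 (q = 0.817), 0.16 for Timp1 (q = 0.937), -0.02 for Cd44 (q = 0.986) and 0.26 for Steap4 (q = 0.915). That fit kept withdrawal rats 1, 2 and 3, estimated its surrogate variables anew, and called 5 genes in all. The measured difference of mean log2 CPM between the same 3 withdrawal and 6 control rats was 0.60 for Gfap, 0.82 for S1pr3, 0.74 for Cp, 0.61 for Lcn2, 1.40 for Timp1, 0.48 for Cd44 and -0.02 for Steap4. In Timp1 withdrawal rat 1 was at 18.9 CPM and rats 2 and 3 were at 2.28 and 2.56. Why the fitted values were smaller was not tested.

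**Figure D2:**
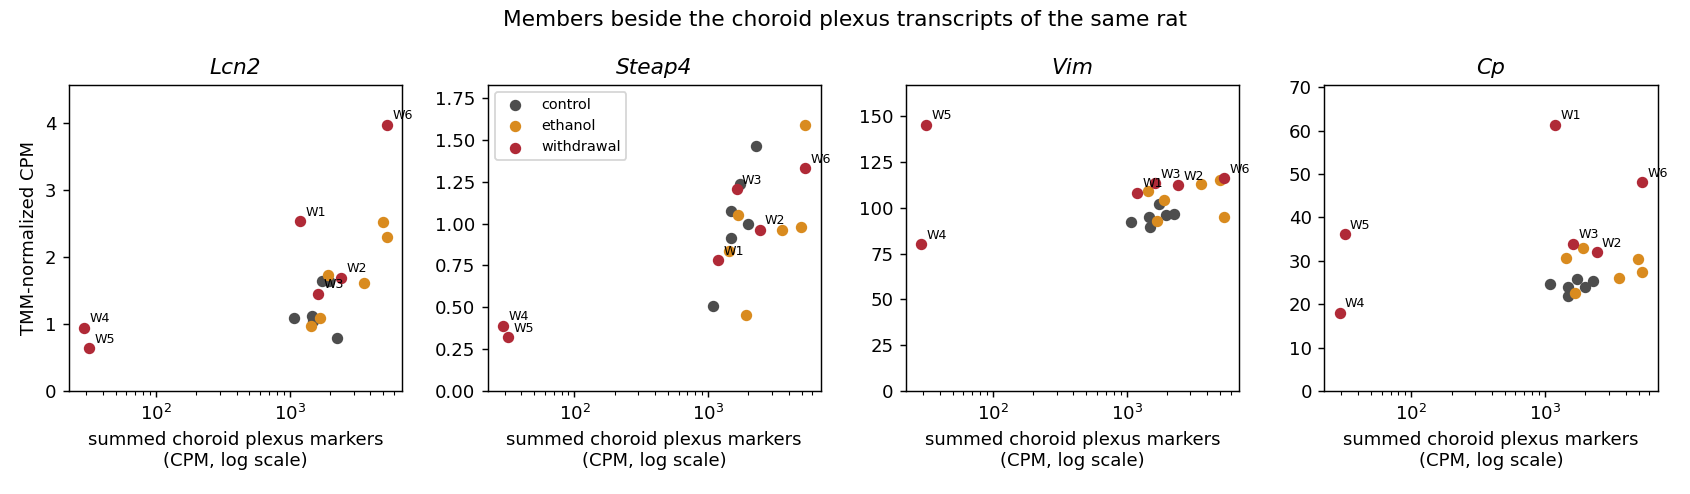
Level of Lcn2, Steap4, Vim and Cp (TMM-normalized CPM) in each of the 18 rats against the summed level of 6 choroid plexus markers in the same rat (CPM, log axis), with the withdrawal rats labelled. W4 and W5 lie at 29.06 and 31.66 CPM of choroid plexus markers, apart from all other rats, and hold the lowest 2 Steap4 values. Vim differs between them, with 80.01 CPM in W4 and 145 in W5.

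Calls among the 10 genes were made in both comparisons of withdrawal rats and not between ethanol and control. Between withdrawal and control, 4 of the 9 genes tested were called higher and 0 lower (Gfap, S1pr3, Timp1 and Cp, limma-voom, q < 0.1), and of all genes tested 2.85% were called higher, 2.55% lower and 5.41% in either direction. Because the genes were named with these results known, nothing is read from the count against that share. With edgeR and with DESeq2, which called 5.77% and 9.86% of all genes they tested, 6 of the 9 were called, Lcn2 (q = 0.0949 and 0.0438) and Cd44 (q = 0.0981 and 0.0799) being added. Without withdrawal rat 6, 0 of the 9 were called and 23 genes in all, and without withdrawal rat 1 the calls were S1pr3 and Cp. With each control rat left out in turn, the calls were likewise S1pr3 and Cp. The median log2 fold change of the 9 was 0.54 (range -0.16 to 1.33), with 8 of 9 above 0, and over all genes the median was 0 and the median size 0.090. Between withdrawal and ethanol, 2 of the 9 were called higher (Gfap and S1pr3), beside 1.23% of all genes called higher, 1.49% lower and 2.72% in either direction, and the median was 0.51 with 9 of 9 above 0. Without surrogate variables 7 of 9 were above 0, with Lcn2 at -0.02 and Steap4 at -0.29 in place of 0.27, and the mean of Steap4 was 0.832 CPM in withdrawal and 0.979 in ethanol rats. Cd44 was called as well in this comparison with edgeR (q = 0.067) and with DESeq2 (q = 0.0306), which called 2.98% and 7.45% of all genes. Of all genes, 0 were called in this comparison without ethanol rat 2, without ethanol rat 3 or without withdrawal rat 6. Between ethanol and control, 0 of the 9 were called with limma-voom, with edgeR or with DESeq2, beside 0.493% of all genes called by limma-voom (0.336% higher and 0.157% lower), 0.538% by edgeR and 3% by DESeq2, and 0 had an unadjusted p under 0.05, as 12.5% of all genes did. Their median was 0.11, with 5 of 9 above 0. The 3 comparisons share their groups of rats, so these counts are not independent of each other.

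Without surrogate variables the calls among the 9 genes were fewer. The median fold change was also lower in both comparisons of withdrawal rats. The median between withdrawal and control was 0.43 in place of 0.54 and 0 of the 9 genes were called, when 0.23% of all genes were called. For Gfap the value was 0.44 (q = 0.385), for S1pr3 0.66 (q = 0.18), for Timp1 1.18 (q = 0.326) and for Cp 0.55 (q = 0.293). The median between withdrawal and ethanol was 0.34 in place of 0.51, and Gfap alone of the 9 was called (0.73, q = 0.0773), when 3.48% of all genes were called. Between ethanol and control 0 of the 9 were called, when 0.28% of all genes were called. Within the index set that ethanol rats shared with withdrawal rats 1 and 2, the difference of mean log2 CPM between those 2 rats and the ethanol rats was 0.85 for Gfap, 0.65 for S1pr3, 1.54 for Timp1, 0.96 for Cd44 and 0.65 for Cp. For the 4 withdrawal rats of the other index set, the differences from the ethanol rats were 0.66, 0.34, 0.61, 0.53 and 0.19 in the same order. Lcn2 was at 0.36 in the first set and -0.21 in the other, and Steap4 at -0.08 and -0.41. The first set held only 2 withdrawal rats. Both were above every ethanol rat in Gfap and Cd44, but in S1pr3, Timp1 and Cp only rat 1 was. Rat 2 was at 11.7 CPM in S1pr3, 2.28 in Timp1 and 31.95 in Cp, against up to 12.9, 4.74 and 33.1 in ethanol rats.

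**Figure D3:**
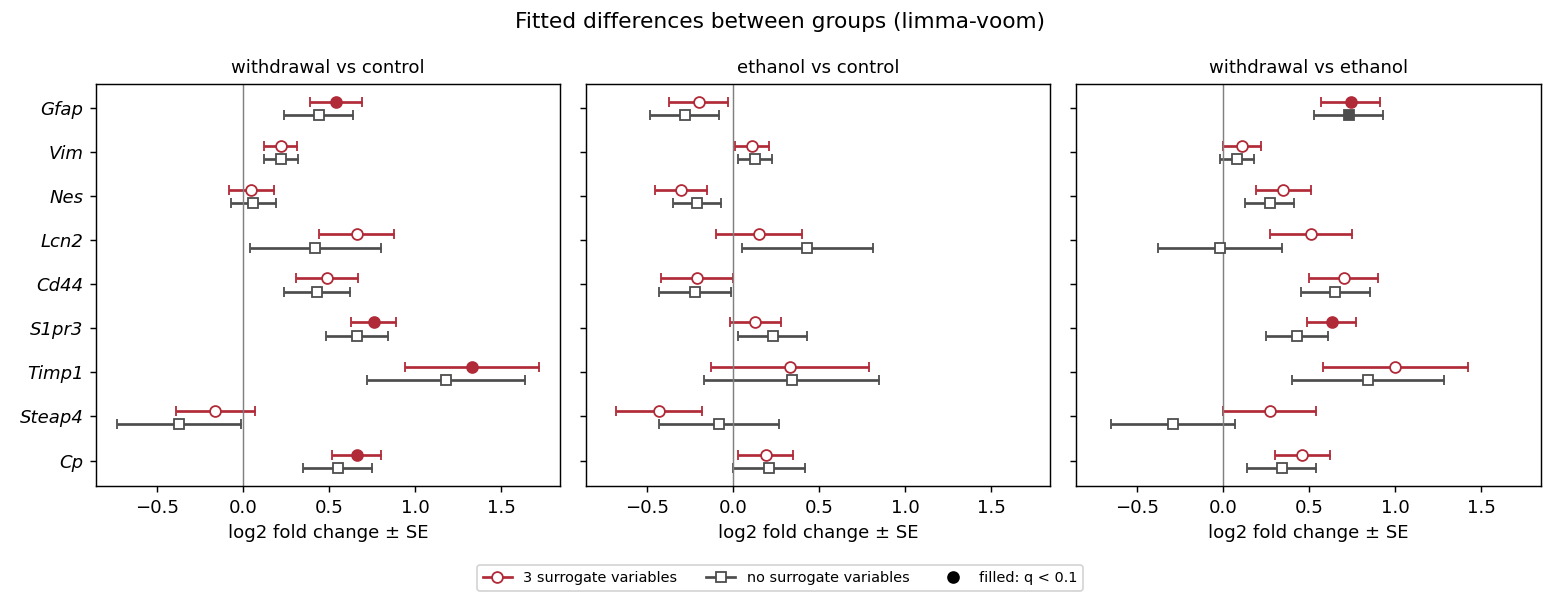
Log2 fold change of the 9 tested genes in each comparison with its SE, with 3 surrogate variables (circles) and without (squares), filled where q < 0.1. Between withdrawal and control the circles of Gfap, S1pr3, Timp1 and Cp are filled and no square is, and between ethanol and control no symbol is filled.

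The SD of the CPM was larger in withdrawal than in control rats for 9 of the 10 genes, and larger in ethanol than in control rats for 8. This was not particular to the 10 genes. The SD was also larger in withdrawal than in control rats for Slc1a3 (132 against 62.7 CPM) and for the neuron markers Syt1 (209 against 75) and Rbfox3 (18.8 against 5.81). It was smaller for Gja1 (14.9 against 27.2), and the share over all genes was not computed. The coefficient of variation of Gfap was 6.19% in control, 28.7% in ethanol and 26% in withdrawal rats, and that of Cp was 5.68%, 13.2% and 38.8%. Withdrawal rat 1 was the highest of all 18 rats in 4 of the 10 genes and withdrawal rat 6 in 3, and rat 6 was among the top 3 rats in 8 of them. Withdrawal rats 4 and 5 were each the lowest of their group in 4 genes. Leaving out withdrawal rat 1 moved the difference of mean log2 CPM between withdrawal and control from 1.22 to 0.80 for Timp1, from 0.67 to 0.53 for S1pr3, from 0.56 to 0.40 for Cp, from 0.45 to 0.28 for Cd44 and from 0.44 to 0.40 for Gfap. For Gfap, leaving out withdrawal rat 5 moved it to 0.64.

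**Figure D4:**
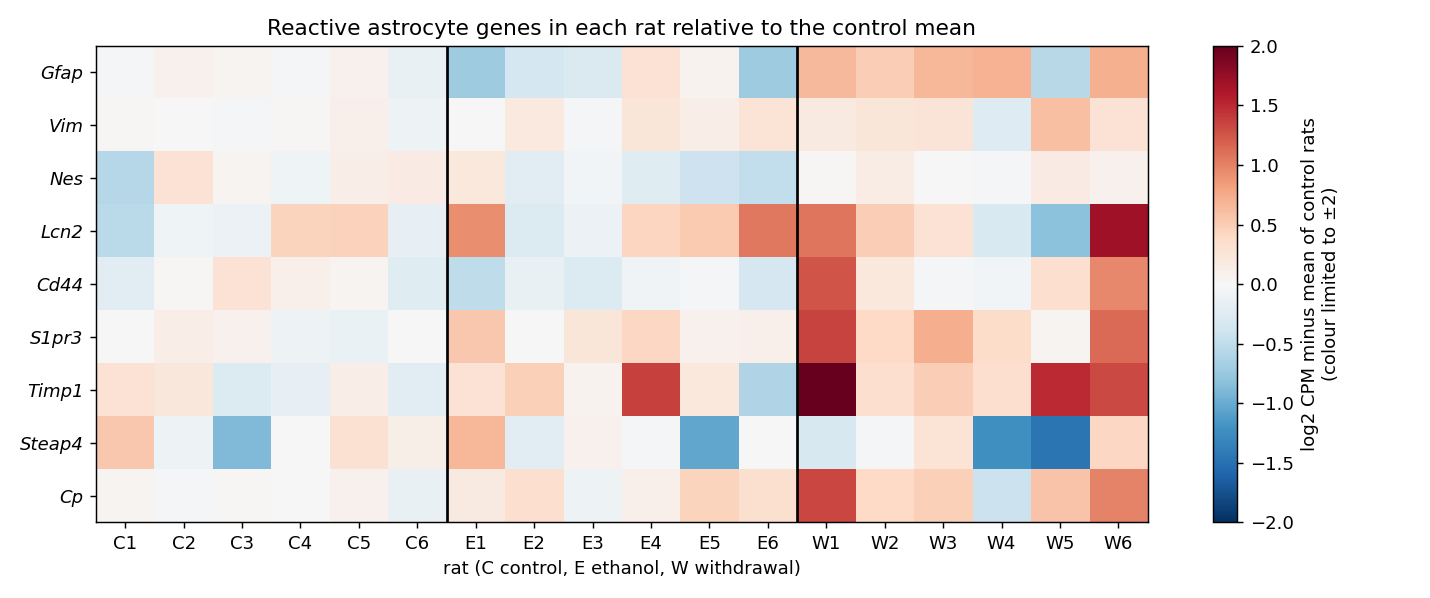
Log2 CPM of the 9 tested genes in each rat (columns, C control, E ethanol, W withdrawal) minus the mean of the 6 control rats, in color limited to 2 on either side. W1 and W6 are above the control mean in most genes, W5 is below it in Gfap, Lcn2 and Steap4 and above it in Vim and Timp1, and the Timp1 value of W1 lies beyond the color limit.

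From rat to rat, some of the genes went together and others did not. After each group's mean was subtracted, the 36 pairs of the 9 tested genes had a median Pearson r of 0.20 over the 18 rats, with 28 pairs above 0. Cd44 and Cp were most alike (r = 0.78, and 0.67 without withdrawal rat 1), followed by Cd44 and Timp1 (0.71, and 0.49 without it). The order changed without that rat, when Vim and Cp were most alike (0.71, and 0.56 with it). In all 18 rats Gfap and Vim were the least alike (-0.41). These rats share depth, dissection and index sets, and the values are given as a description. Over all genes tested, the pattern closest to Gfap was that of Virma (r = 0.89, Spearman's rho 0.81), Dgka (0.88, 0.79) and Kiaa1549 (0.87, 0.74). Closest to Vim were Thbs2 (0.87, 0.63), Ccn5 (0.85, 0.47) and Aldh1a2 (0.84, 0.66). Closest to Timp1 were Shc1 (0.94, 0.87), Fgl2 (0.90, 0.77) and Anks1a (0.87, 0.82), which without withdrawal rat 1 had r = 0.90, 0.77 and 0.74.

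Other genes named for reactive astrocytes were tested beside the 10. Of 4 further pan-reactive genes, 2 were called, both higher in withdrawal rats than in controls, beside 2.85% of all genes called higher, and the median log2 fold change was 0.80. They were Osmr, the receptor subunit for oncostatin M (0.86, SE 0.24, q = 0.0746), and Hspb1, a small heat shock protein (1.13, SE 0.28, q = 0.0467). Both peaked in withdrawal rat 1, at 13.8 and 24.4 CPM, and leaving it out gave 0.58 (q = 0.0893) and 0.95 (q = 0.0783). Without surrogate variables neither was called (q = 0.318 for Osmr and 0.265 for Hspb1). Osmr ran from 2.36 to 3.45 CPM in control rats and from 3.05 to 13.8 in withdrawal rats, and all 6 withdrawal rats were above all 6 ethanol rats, as for 0.611% of all genes tested (0.97, SE 0.28, q = 0.0967). Of 9 genes on an A1-type list, named for astrocytes exposed to inflammatory signals, 1 was called higher and 1 lower in withdrawal than in control rats. The shares of all genes were 2.85% and 2.55%. Serping1 rose (0.34, SE 0.10, q = 0.09, and q = 0.359 without surrogate variables). Complement C3, the best-known marker of that state, fell by 0.77 on the log2 scale (SE 0.16, q = 0.0247). C3 was also lower in ethanol than in control rats (-0.89, SE 0.17, q = 0.0688), with means of 35.5 ± 7.44 CPM in control, 19.8 ± 3.69 in ethanol and 20.4 ± 5.31 in withdrawal rats (SD, n = 6 each). Of 11 tested genes on an A2-type list, named for astrocytes after ischemia, Emp1, a membrane protein, rose against control (0.94, SE 0.16, q = 0.0195) and against ethanol (0.93, SE 0.18, q = 0.0317), and the other 10 were not called in any comparison. The shares of all genes called higher were 2.85% against control and 1.23% against ethanol. Without surrogate variables 0 of the 11 were called against control and 1 against ethanol.

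Upstream of the genes, 3 of 12 tested members of the gp130 and STAT3 route rose between withdrawal and control, and the median over the 12 was 0.05, beside 2.85% of all genes called higher. Without surrogate variables 0 of the 12 were called, with q = 0.157 for Lif, 0.292 for Socs3 and 0.26 for Stat3. Each of the 3 had its highest level of the group in withdrawal rat 1. When that rat was left out the differences were 1.49 (q = 0.0337), 1.12 (q = 0.0636) and 0.22 (q = 0.0462) in the same order. The cytokine Lif, a ligand of gp130, had the largest value of the list (1.84, SE 0.36, q = 0.0218). All 6 withdrawal rats were above all 6 control rats, at 0.517 to 3.68 CPM against 0.160 to 0.336, as for 0.521% of all genes tested. Lif had 5 to 12 read pairs per control rat. Every control rat was below the 0.5 CPM of the filter and every withdrawal rat above it, and ethanol rats reached 0.538. Lif thus entered the test mainly through the group where it was high. Socs3, which STAT3 induces and which shuts the route off, ran from 1.53 to 11.7 CPM in withdrawal rats and from 1.04 to 1.49 in control rats (1.47, SE 0.37, q = 0.0501). Stat3 itself rose by less (0.32, SE 0.074, q = 0.0372), from a mean of 60.2 ± 2.73 CPM to 74.9 ± 15.9 (SD, n = 6). Of the metalloproteinases and other TIMPs, 1 of 9 rose in withdrawal against control, beside 2.85% of all genes called higher. It was Mmp14, a membrane-bound metalloproteinase (0.70, SE 0.13, q = 0.0199), which was also called against ethanol (0.58, SE 0.14, q = 0.0648) but was at 0.16 there without surrogate variables (q = 0.737), with means of 24 CPM in withdrawal and 20.7 in ethanol rats, while Timp4 fell against ethanol (-0.41, SE 0.099, q = 0.0626).

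The general astrocyte markers gave calls in both directions. Of 14, 1 was called higher and 2 lower between withdrawal and control, beside 2.85% and 2.55% of all genes, with a median of 0.01, and their summed level ran from 6378 to 7113 CPM in control rats, from 6194 to 7216 in ethanol rats and from 6367 to 7464 in withdrawal rats. Aldh1l1, a folate enzyme used as a pan-astrocyte marker, fell by 0.41 on the log2 scale (SE 0.10, q = 0.0487), and Gja1, the gap junction protein connexin 43, fell by 0.13 (SE 0.039, q = 0.0866). The transcription factor Sox9 rose (0.37, SE 0.12, q = 0.0979). Without surrogate variables 0 of the 14 were called between withdrawal and control. Aqp4, the water channel of astrocyte end feet, had -0.01 (SE 0.080, q = 0.966), and the glutamate transporter Slc1a3 had 0.08 (SE 0.060, q = 0.485). Against ethanol, Ndrg2, a cytoplasmic protein abundant in astrocytes, fell by 0.30 (SE 0.057, q = 0.0317), and by 0.20 without surrogate variables (q = 0.21).

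Markers of other cells that also express some of the 10 genes were compared in the same fit. Of 8 microglia markers 0 were called in the 3 comparisons, and their summed level was 191.7 to 215.3 CPM in control, 180.8 to 207.3 in ethanol and 161.9 to 218.4 in withdrawal rats. Of 8 endothelial and pericyte markers, 3 were called higher between withdrawal and control, beside 2.85% of all genes. They were Pecam1 (0.34, SE 0.070, q = 0.0257), Flt1 (0.28, SE 0.076, q = 0.0629) and Pdgfrb (0.25, SE 0.070, q = 0.0723). Without surrogate variables 0 of the 8 were called. The summed level of the 8 was 322.2 to 392.7 CPM in control, 330.8 to 408.9 in ethanol and 343.7 to 423.7 in withdrawal rats. Of the tested fibroblast and meningeal markers 0 of 6 were called, and of the choroid plexus markers 0 of 6, with Ttr at -0.63 (SE 0.21, q = 0.122). Of 5 ependymal markers, 2 were called higher between withdrawal and control, beside 2.85% of all genes. They were Ccdc153 (0.39, SE 0.10, q = 0.0564) and Tmem212 (0.36, SE 0.11, q = 0.091, and 0.24 with q = 0.85 without surrogate variables). Without surrogate variables 0 of the 5 were called and their median was -0.02. The median of their summed level was 49.66 CPM in control and 47.72 in withdrawal rats. The summed ependymal markers ran from 46.01 to 64.61 CPM in control, from 50.85 to 94.42 in ethanol and from 38.49 to 87.03 in withdrawal rats. Of 6 neural stem cell and neuroblast markers 0 were called in the 3 comparisons, with sums of 136.6 to 150 CPM in control, 128.2 to 154.6 in ethanol and 132.4 to 157 in withdrawal rats. No choroid plexus, microglia, endothelial or pericyte marker was at 0 in any rat. The part of these cells in the levels of Vim and Nes and in the differences of Gfap, S1pr3, Timp1 and Cp was not tested.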

How the data were processed

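RNA from the dorsal hippocampus of 18 rats, 6 per group, was sequenced as stranded paired-end libraries (100 nt reads, RNA integrity numbers above 8). Per the submitters' processing notes and the study's methods, reads were aligned with STAR 2.5.2a to Rnor_6.0. The authors deposited counts per gene and rat from featureCounts 1.5.0, as raw counts by strand that leave out multi-mapping read pairs. Gene symbols came from a RefSeq table of GRCr8, used for names only (29322 of 38445 genes named), gene coordinates from the deposited tables, and promoters from RefSeq (GRCr8).

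Counts were TMM-normalized with edgeR 4.0.16, and the 17853 genes above 0.5 CPM in at least 1 rat were tested in R 4.3.3 with limma-voom (limma 3.58.1) in one model of the 3 groups, which follows the study's methods. The methods do not give the number of surrogate variables or of rats in the filter. Here 3 surrogate variables were taken (sva 3.50.0, log2 CPM, prior count 2). Two-sided p-values were adjusted by Benjamini-Hochberg within each comparison (q), with a threshold of 0.1. In a simulated withdrawal-control comparison, 190 of 200 genes changed by 2-fold were recovered with 23 false calls over 17281 genes, and 0 were called over 17300 genes when none was changed. The simulation gave every gene the same dispersion in all groups and added a hidden source of variation drawn without regard to group. In these rats the spread differed by gene and group (coefficient of variation of Timp1 17.4% in control and 108% in withdrawal rats). The simulated rates therefore do not carry over to them.

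Groups and replicate numbers came from the sample labels. Same-numbered rats of different groups were different animals, and their deviations from the group means correlated between -0.32 and 0.38 (18 pairs, 4 above 0.1), so the numbers were not taken as pairs. Counts of rats of the same group differed beyond sampling noise in 45 of 45 pairs (chi-square per degree of freedom at least 5.44). Totals of 30873228 to 42679748 read pairs on genes limit precision for genes with few counts.

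The 10 genes and the lists were chosen with earlier results of these data known. Apart from the 10 genes, those named are the genes with q < 0.1 in any comparison on lists of other reactive, gp130 and STAT3, filament, hyaluronan, sphingosine, metalloproteinase, iron and cell type genes (at most 4 per list), Stat3, Socs3, Osmr, Aqp4, Aldh1l1, Slc1a3, Ttr and Pecam1, and the 3 genes most like Gfap, Vim and Timp1 in Pearson correlation. Alternatives were other numbers of surrogate variables, edgeR's quasi-likelihood test, DESeq2 1.42.0, sample weights, upper quartile scaling, other filters, q < 0.05, only the groups compared, a replicate block and leaving out each rat. Python 3.11.15 with pandas 2.3.3 and matplotlib 3.10.9 drew the plots.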

Additional observations from a re-analysis of the deposited data

Results flagged for a closer look

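In 30 groups of 6 rats (10 genes in 3 groups), 2 values stood far from the other 5 by Dixon's test, which chance does in about 1 in 20 groups. Gfap in withdrawal rat 5 was 639 CPM, and the nearest of the other withdrawal rats was at 1321 CPM, a gap of 0.765 of the whole range. Timp1 in withdrawal rat 1 was 18.9 CPM, and the nearest of the other withdrawal rats was at 5.16 CPM, a gap of 0.827 of the whole range. Rat 5 had the lowest Gfap of the withdrawal group and the second highest Timp1, and rat 1 was between the lowest and the highest in Gfap at 1462 CPM, so the rat that stood apart differed between these genes.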

How the results depend on the processing

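Between withdrawal and control, 4 of the 9 tested genes were called with 3 surrogate variables. The number was 2 at q < 0.05 (S1pr3 and Cp), 0 without surrogate variables, 1 with 2 surrogate variables (S1pr3), 6 with edgeR and 6 with DESeq2 (Cd44 and Lcn2 added), and 1 in the 12 rats with 1000 to 3000 CPM of choroid plexus markers (Gfap), a set added after the data were seen that calls 5 genes in all. Leaving out each rat in turn gave 0 to 6. Between withdrawal and ethanol, 2 were called. The number was 0 at q < 0.05, 1 without surrogate variables (Gfap), 4 with 5 surrogate variables, 3 with edgeR, with DESeq2 and with sample weights (Cd44 added), 0 with only the 2 groups compared (0 genes in all), 0 with the replicate block (1 gene in all), and 1 in the 12 rats (12 genes in all). Leaving out each rat in turn gave 0 to 4. In the fit with the replicate block, 5 of the 9 were called between withdrawal and control, Vim being added. Between ethanol and control 0 of the 9 were called in each alternative and with each rat left out. The calls of all genes moved as well, from 965 between withdrawal and control to 41 without surrogate variables, 370 at q < 0.05, 594 and 262 with 2 and 5 surrogate variables, 486 without a filter and 1624 with DESeq2. Between ethanol and control 88 became 322 with 5 surrogate variables, 473 with DESeq2, 440 with sample weights and 9 without a filter. Between withdrawal and ethanol 486 became 871 with 5 surrogate variables, 260 with 2, 166 without a filter, 1176 with DESeq2 and 1073 with sample weights. The cause of these changes was not tested.

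No fold change of the 10 genes or of the other genes named that was called with 3 surrogate variables in all 18 rats changed sign in any alternative. Cd44 between withdrawal and control, called with edgeR and DESeq2 (0.53 in both), was at -0.02 in the 12 rats. With each of the 18 rats left out, the fold change between withdrawal and control ran from 0.45 to 0.62 for Gfap (called in 9 of 18 fits), from 0.63 to 0.86 for S1pr3 (17 of 18), from 0.89 to 1.68 for Timp1 (9 of 18) and from 0.55 to 0.77 for Cp (17 of 18). Among the other genes called between withdrawal and control, the call was kept in fewer than 10 of the 18 fits for Sox9 and Tmem212 (4 each), Spp1 (6), Gja1 (7), and Heph, Serping1 and Pdgfra (8 each). Of the fits of other named genes under alternatives, 838 kept their call and 371 did not. Serpina3n, with at most 18 read pairs in a rat, is limited by its counts, as are Lcn2 and Steap4.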

Other observations

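On the lists not described so far, 3 of 5 tested blood markers were called lower than in control rats in both diet groups. The shares of all genes called lower against control were 2.55% in withdrawal rats and 0.157% in ethanol rats. In the fit without surrogate variables, 1 of the 5 was called lower in withdrawal rats and 3 were in ethanol rats. The globin gene Hbb was lower in withdrawal than in control rats (log2 fold change -1.51, SE 0.27, q = 0.0195) and in ethanol than in control rats (-1.59, SE 0.29, q = 0.0562), as were Hba-a1 (-1.36, q = 0.0226, and -1.45, q = 0.0809) and Alas2, an enzyme of heme synthesis in red cells (-1.54, q = 0.027, and -1.64, q = 0.0834). Of 7 oligodendrocyte markers, 0 were called between withdrawal and control without surrogate variables. With 3 surrogate variables 2 were called higher, beside 2.85% of all genes. They were Olig2, a transcription factor of the whole oligodendrocyte lineage (0.28, SE 0.058, q = 0.024), and Pdgfra, a growth factor receptor of the precursors (0.14, SE 0.043, q = 0.0863, and 0.07 with q = 0.807 without surrogate variables). Of 6 neuron markers 0 were called against control, and Gad2, an enzyme of GABA synthesis, rose against ethanol (0.35, SE 0.083, q = 0.0578, and 0.62 with q = 0.0821 without surrogate variables). Between ethanol and control, Mt2A, a metallothionein on the iron and copper list, rose by 0.92 on the log2 scale (SE 0.19, q = 0.0809).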
